A study of Mus musculus with 6 samples.

Results

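The motile cilium is built on an axoneme, a ring of doublet microtubules around a central pair, and 67 genes of its machinery were measured here among 16537 genes in whole mouse lung. They were picked by a rule on gene names, set with earlier results of these data known. The rule took probe sets with 1 annotated gene symbol of the dynein heavy chain (Dnah), dynein intermediate chain (Dnai and Dnaic), cilia and flagella associated protein (Cfap), tektin (Tekt), radial spoke head (Rsph) and dynein regulatory complex (Drc) families. It added Foxj1, Mcidas, Ccno, Rfx3, Ccdc40, Ccdc113, Spag6l, Spef2, Hydin, Tppp3 and Cdhr3. They came from 70 probe sets, and the probe set of highest mean signal stood for its gene. Ccdc39 was covered only by a probe set shared with another gene, which is 1 of 4 such shared probe sets left out.

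In the lung, motile cilia stand on the multiciliated cells of the conducting airway, where their beat carries mucus upward. Mcidas and Ccno act early, when a cell makes the many centrioles that become basal bodies, and Foxj1 and the Rfx factors then switch on the genes of the axoneme. Outer and inner dynein arms slide neighbouring doublets, radial spokes and the nexin links convert sliding into bending, and the central pair sets the pattern of the beat. Loss of many of these parts causes primary ciliary dyskinesia in people.

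RNA had been extracted from whole lung after naphthalene, a compound that club cells turn into a toxic product and that strips the airway of them. Of the 6 arrays, 3 were labelled Falcor-null, from mice lacking the long non-coding RNA gene Falcor, with labels of 31, 32 and 33 days after naphthalene, and 3 were labelled wild type, with labels of 28, 29 and 30 days. The strain label, a mix of CD1 and C57Bl6, was shared by all 6, and no untreated lung was among them. Genotype and labelled day cannot be told apart. Since the labels did not say whether samples came from separate animals, the p-values reflect the spread among 6 samples, and that spread may be technical. The number of arrays limits the precision, and array medians lay between 6.69 and 6.74 on the log2 scale.

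The Falcor probe set (9030622O22Rik) read 6.82, 6.34 and 6.32 log2 units on the arrays labelled Falcor-null, against 4.69, 5.01 and 5.45 on the wild-type arrays (log2 difference 1.44, limma adjusted p 0.0423). If the probe set lies inside the deletion, that runs against the labels. No source used here places it relative to the deletion, and every direction below rests on the labels. Foxa2, the neighbouring forkhead gene, had a log2 difference of 0.27 (adjusted p 0.175). The lung markers Scgb1a1 of club cells and Sftpc of alveolar type 2 cells read between 13.55 and 13.63 on all 6 arrays. That is near the top of the scale, where the highest signals of the arrays were 13.83 to 13.90. Their even readings therefore do not show equal content of these cells.

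Sequence around the starts of these genes held 1 motif more often than promoters at large, though most windows lacked it. Their selection by name did not use it. RFX factors bind the X-box, an inverted repeat whose half-site was searched as GTTGCC on both strands in windows from 250 bases before to 50 bases after each gene's start. Of the 67 genes, 58 had such windows in the RefSeq promoter table (GRCm38.p6), 65 in all. The half-site stood in 29 of the 65 windows (44.6%), against 4111 of all 32851 windows in that table (12.5%). Windows of the same gene can overlap and count a site more than once. Counted by gene, it was found for 27 of 58 (46.6%), against 14.1% of all genes in that table. A stricter form, the inverted repeat made of GTTGC, any 4 bases and GCAAC, which reads the same on both strands and can overlap the half-site, stood in 4 of 65 windows (6.15%) and in 57 of all windows (0.174%). The forkhead core TGTTTA, searched on both strands as the kind of site that Foxj1 can bind, stood in 9 of 65 (13.8%), against 13.4% of all windows. These shares are descriptions of letters in windows of one length, and a match is not a site shown to be bound.

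The upstream stretches below, chosen after matches and values were seen, show the 4 windows with the full inverted repeat, and the half-site upstream of Mcidas and Dnah7a, both among the genes with the largest differences between the groups. Each is 120 bases long and lies wholly before the gene's start, on the gene's own strand, and capitals mark the inverted repeat in Hydin, Cfap44, Cfap298 and Cfap20dc and the half-site in Mcidas and Dnah7a.
Hydin, chr8:110266857-110266976, plus strand: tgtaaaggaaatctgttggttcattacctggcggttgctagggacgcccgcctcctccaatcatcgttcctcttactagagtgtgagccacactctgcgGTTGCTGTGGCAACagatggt
Cfap44, chr16:44394679-44394798, plus strand: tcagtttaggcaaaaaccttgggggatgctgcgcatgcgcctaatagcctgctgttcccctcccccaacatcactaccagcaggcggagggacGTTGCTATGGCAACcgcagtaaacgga
Cfap298, chr16:90934971-90935090, minus strand: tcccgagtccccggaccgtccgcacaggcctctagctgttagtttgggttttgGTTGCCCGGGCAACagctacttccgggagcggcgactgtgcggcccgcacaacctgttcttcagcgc
Cfap20dc, chr14:8666326-8666445, minus strand: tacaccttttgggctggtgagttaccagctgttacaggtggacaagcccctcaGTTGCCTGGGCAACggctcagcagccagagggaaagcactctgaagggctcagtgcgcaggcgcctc
Mcidas, chr13:112993618-112993737, plus strand: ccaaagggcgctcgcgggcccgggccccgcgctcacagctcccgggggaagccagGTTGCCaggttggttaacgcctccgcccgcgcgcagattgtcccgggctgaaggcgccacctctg
Dnah7a, chr1:53706915-53707034, minus strand: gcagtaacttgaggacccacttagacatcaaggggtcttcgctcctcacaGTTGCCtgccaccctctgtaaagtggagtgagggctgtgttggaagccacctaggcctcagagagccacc
In Hydin and Cfap44 the repeat began 21 and 27 bases before the start, close to where transcription begins, whereas in Cfap298 and Cfap20dc it began 188 and 102 bases before it.

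As a group the cilium genes differed little between lung labelled Falcor-null and wild type. The comparison asked how loss of Falcor alters the lung after naphthalene. Of the 67 genes, 43 had a higher mean on the arrays labelled Falcor-null and 24 a lower one, with a median log2 difference of 0.08, whereas 50.8% of all genes tested had a higher mean and their median was 0.00258. Only the radial spoke gene Rsph3b passed the test, as lower, at an adjusted p under 0.05 in limma over all 16537 genes, where 0.556% of all genes passed in either direction and 0.46% as lower. At an unadjusted p under 0.05, 9 of the 67 stood out, against 13.8% of all genes. The groups did not overlap for 8 of the 67, 4 higher and 4 lower, where 19.5% of all genes did not overlap, 8.96% as higher and 10.6% as lower. By unadjusted p and by overlap, the cilium genes thus stood out no more often than all genes did.

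The size of most differences was bounded. The difference was under 0.25 in either direction for 56 of 67 genes and over 0.5 for 3, and 84.3% and 3.83% of all genes fell in those classes. The 95% interval from limma lay wholly between -1 and 1 on the log2 scale for 63 of 67 genes and wholly between -0.5 and 0.5 for 41. It included 0 for 58 genes. In whole-lung RNA, fewer ciliated cells and less RNA per cell cannot be told apart.

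**Figure D1:**
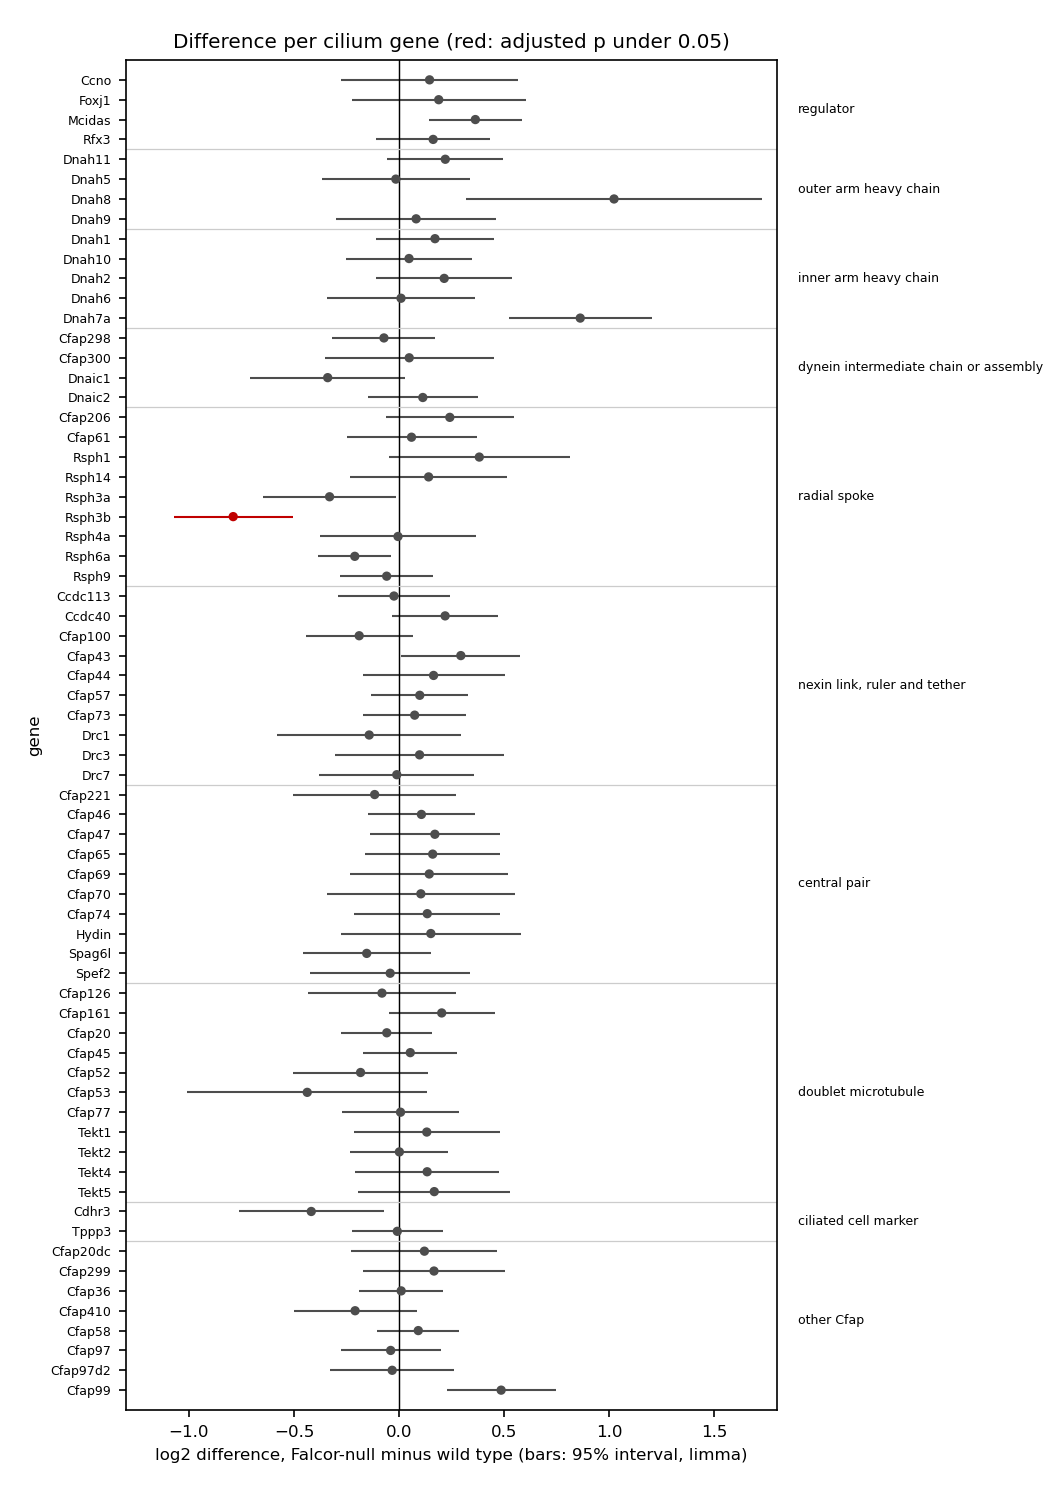
Log2 difference of each of the 67 cilium genes, Falcor-null minus wild type, grouped by role down the page, with points for the limma estimate and bars for its 95% interval (3 arrays a group). Rsph3b, in red, is the gene that passed at an adjusted p under 0.05, and 58 of 67 intervals cross the line at 0.

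Regulators came first in the order of ciliogenesis, and all 4 measured had a higher mean on the arrays labelled Falcor-null, by 0.15 to 0.36 on the log2 scale, with none passing. Mcidas, which starts centriole amplification, read 5.81, 6.07 and 5.86 on the arrays labelled Falcor-null, against 5.61, 5.57 and 5.47 on the wild-type arrays. The groups did not overlap, and the mean difference of 0.36 (95% interval 0.14 to 0.59) had a limma adjusted p of 0.163 and did not pass. Foxj1, the forkhead factor of motile cilia, read 7.94, 8.32 and 8.31 on the arrays labelled Falcor-null and 8.37, 7.80 and 7.83 on the wild-type arrays. Its highest value was on wild type replicate 1 and its groups overlapped (difference 0.19, adjusted p 0.699).

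Rfx3, which acts through the X-box, read 7.39, 7.30 and 7.41 on the arrays labelled Falcor-null and 7.41, 6.98 and 7.22 on the wild-type arrays (difference 0.16, adjusted p 0.589). Ccno, whose gene is the neighbour of Mcidas on chromosome 13, read 4.96, 5.06 and 4.42 on the arrays labelled Falcor-null and 4.61, 4.51 and 4.89 on the wild-type arrays. Those groups overlapped (difference 0.15, adjusted p 0.782), and its signal was the dimmest of the 67 genes, near the low end of the array.

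Dynein heavy chains are the motors of the arms, and of 9 measured, 8 had a higher mean on the arrays labelled Falcor-null and none passed. The outer arm chain Dnah5, a frequent cause of ciliary dyskinesia in people, had a difference of -0.02 (95% interval -0.37 to 0.34), and the outer arm chain Dnah9 one of 0.08 (-0.30 to 0.46). Dnah11, the other outer arm chain of airway cilia, had 0.22 (-0.06 to 0.50). Among the inner arm chains Dnah1 (0.17), Dnah2 (0.22), Dnah6 (0.01) and Dnah10 (0.05) had adjusted p-values between 0.547 and 0.988. A second, dimmer probe set of Dnah2 gave -0.01.

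A pair of heavy chains stood apart in size. Dnah7a, an inner arm chain, read 6.01, 5.89 and 5.61 on the arrays labelled Falcor-null, against 5.23, 4.87 and 4.82 on the wild-type arrays. The groups did not overlap, and the difference of 0.86 (95% interval 0.52 to 1.20), 1.82-fold, did not pass (limma adjusted p 0.0659). Dnah7a was among the 5 dimmest of the 67 genes, and both filters for dim probe sets left it out. It passed in 3 of 16 alternatives, which were array weights (adjusted p 0.0496), the omission of wild type replicate 1 (difference 0.99, adjusted p 0.0479) and a threshold of 0.1. The other 5 single-array omissions gave adjusted p-values between 0.0754 and 0.185. Mice carry the near-identical copies Dnah7b and Dnah7c, so that signal cannot be assigned to Dnah7a with certainty. A probe set annotated to all 3 copies together read 5.99, 6.31 and 6.41 on the arrays labelled Falcor-null and 6.42, 6.19 and 6.33 on the wild-type arrays, a difference of -0.08 with overlapping groups.

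Dnah8, an outer arm chain best known from sperm, read 6.04, 7.23 and 6.59 on the arrays labelled Falcor-null, against 6.01, 5.38 and 5.40 on the wild-type arrays. The largest difference of the 67 genes, 1.02 (95% interval 0.32 to 1.73), went with the widest range over the 6 arrays, 1.85, and it did not pass (adjusted p 0.206). The lowest array labelled Falcor-null and the highest wild-type array were almost equal. The difference was 1.32 with Falcor-null replicate 1 left out and 0.72 with replicate 2 left out.

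Intermediate chains and assembly factors load the arms onto the doublets, and none of the 4 measured passed. Dnaic1, an outer arm intermediate chain, read 6.64, 6.63 and 6.70 on the arrays labelled Falcor-null and 7.36, 6.94 and 6.69 on the wild-type arrays. Wild type replicate 1 was high and the groups overlapped (difference -0.34, adjusted p 0.404). Its partner Dnaic2 had 0.11 (adjusted p 0.719), and the arm assembly factors Cfap298 and Cfap300 had -0.07 (adjusted p 0.820) and 0.05 (adjusted p 0.936).

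Radial spokes held the gene that passed. Rsph3b, a spoke stalk protein, read 5.79, 5.95 and 5.66 on the arrays labelled Falcor-null, against 6.71, 6.69 and 6.37 on the wild-type arrays. Its groups did not overlap, and it fell by 0.79 on the log2 scale (SE 0.12, 95% interval -1.07 to -0.51), 1.73-fold (limma adjusted p 0.0477). That p lay close to the threshold, and the call was kept in 8 of 17 alternatives and lost in 9, with adjusted p-values between 0.0357 and 0.162 and differences between -0.90 and -0.72. The 8 include a threshold of 0.1 and updated gene symbols, which reuse the main fit and could not lose the call. With single arrays left out it was kept without wild type replicate 3 (adjusted p 0.0426), and lost without Falcor-null replicate 1 (0.162), 2 (0.0987) or 3 (0.110) and without wild type replicate 1 (0.102) or 2 (0.155). With the replicate number as a block its adjusted p was 0.0665.

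Rsph3a is a close relative of Rsph3b on the same chromosome, 17, and hybridisation may not separate them. Its brighter probe set read 5.90, 5.56 and 5.50 on the arrays labelled Falcor-null and 6.14, 6.01 and 5.80 on the wild-type arrays, overlapping at a difference of -0.33 (adjusted p 0.341). Its other probe set gave 0.03. Markers of lymphocytes were lower on the same arrays. All 6 T cell markers measured had a lower mean, 3 of them passing, with a summed linear signal of 642 to 767 on the arrays labelled Falcor-null against 1421 to 1535 on the wild-type arrays. All 7 B and plasma cell markers had a lower mean, 4 of them passing, with a sum of 1611 to 2187 on the arrays labelled Falcor-null against 8204 to 11272 on the wild-type arrays. Their part in the Rsph3b result was not tested.

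The other spoke genes did not pass. Rsph6a, a spoke head protein best known from sperm, had a small difference of -0.21 with groups that did not overlap (adjusted p 0.270). Rsph1, a spoke head protein, read 7.73, 7.47 and 7.46 on the arrays labelled Falcor-null and 7.52, 6.78 and 7.22 on the wild-type arrays (difference 0.38, adjusted p 0.419). Wild type replicate 2 was the lowest of the 6 arrays. Rsph4a (-0.00472, 95% interval -0.38 to 0.37) and Rsph9 (-0.06, -0.28 to 0.16), spoke head proteins of airway cilia, had intervals around 0, and Rsph14 had 0.14 (adjusted p 0.759). Cfap206 and Cfap61, which anchor spokes in ciliates or algae, had 0.24 and 0.06.

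**Figure D2:**
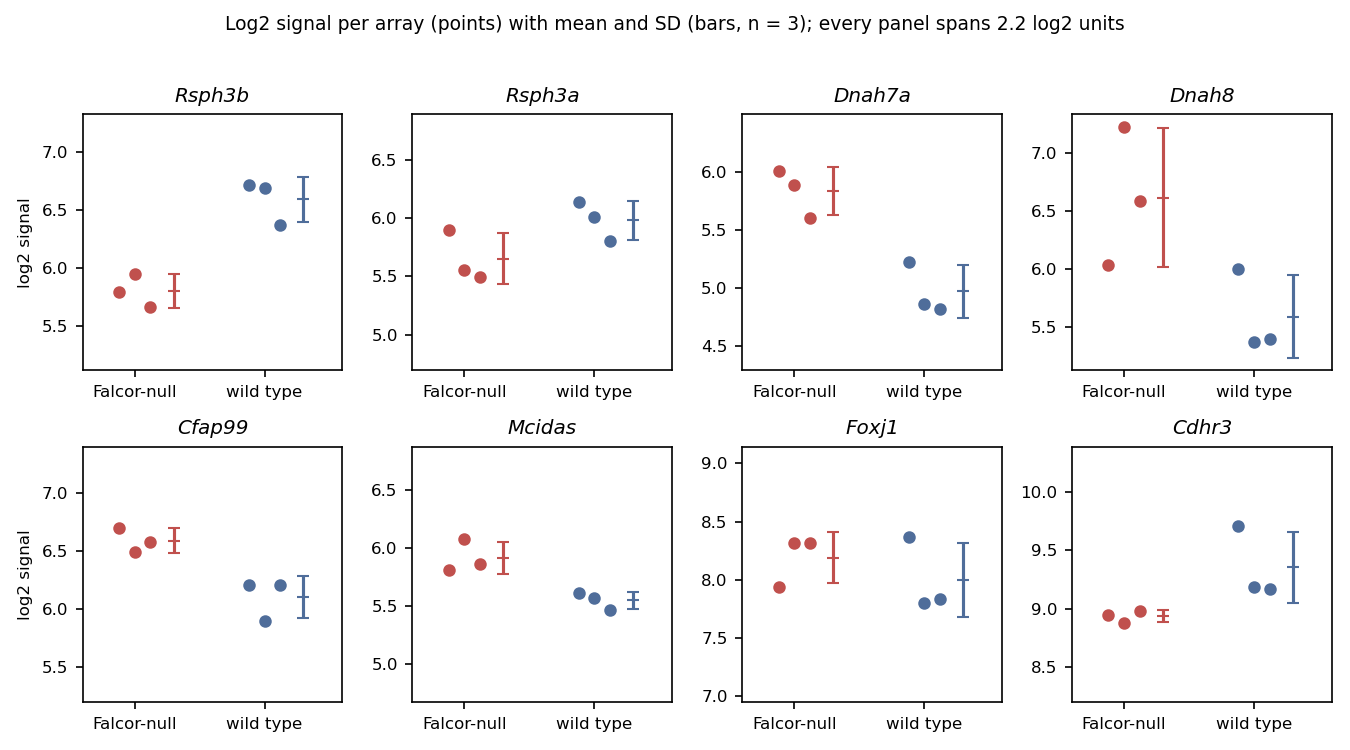
Log2 signal of 8 cilium genes on each array, arrays labelled Falcor-null on the left and wild type on the right, with the mean and SD (n = 3) beside the points. Rsph3b, Dnah7a, Dnah8, Cfap99, Mcidas and Cdhr3 have groups that do not overlap, whereas those of Rsph3a and Foxj1 overlap.

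The nexin links, the ruler that spaces the arms and the tethers of the inner arm gave 6 higher and 4 lower of 10, with no call. Ccdc40, which forms the ruler with Ccdc39, had a difference of 0.22 (95% interval -0.03 to 0.47, adjusted p 0.428). Cfap43, a tether protein, read 7.84, 7.63 and 7.84 on the arrays labelled Falcor-null and 7.71, 7.34 and 7.38 on the wild-type arrays (difference 0.29, adjusted p 0.344), and its partner Cfap44 had 0.16 (adjusted p 0.680). Drc1, Drc3 and Drc7 of the nexin link had -0.14, 0.10 and -0.01, and Ccdc113 had -0.02. Cfap100 was low on every array labelled Falcor-null, at 5.46, 5.41 and 5.52, against 5.88, 5.55 and 5.53 on the wild-type arrays, by only 0.19 on average (adjusted p 0.499).

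Central pair genes, which include the large scaffold Hydin, gave 7 higher and 3 lower of 10, between -0.15 and 0.17, with no call and no group free of overlap. Hydin read 7.76, 7.62 and 7.83 on the arrays labelled Falcor-null and 8.04, 7.37 and 7.35 on the wild-type arrays. Its arrays labelled Falcor-null lay inside the span of the wild-type arrays (difference 0.15, 95% interval -0.28 to 0.58). Spag6l read 7.22, 7.21 and 7.23 on the arrays labelled Falcor-null and 7.68, 7.20 and 7.24 on the wild-type arrays, so that 5 of the arrays were nearly equal and wild type replicate 1 stood above them (difference -0.15, adjusted p 0.663). Spef2 had -0.04 (adjusted p 0.943), and Cfap65 had 0.16 (adjusted p 0.668).

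Proteins of the doublet microtubules gave 7 higher and 4 lower of 11. The tektins, filament proteins of the doublet wall, had differences of 0.13 for Tekt1, 0.0018 for Tekt2, 0.13 for Tekt4 and 0.17 for Tekt5, and a second, dim probe set of Tekt2 gave 0.22. Cfap53, a protein inside the doublet, read 6.66, 6.41 and 6.79 on the arrays labelled Falcor-null and 7.60, 6.56 and 7.004 on the wild-type arrays. Its difference of -0.44 came with overlapping groups and 1 high wild-type array (adjusted p 0.487). Cfap20, which lies at the seam of the doublet, had -0.06 (95% interval -0.27 to 0.16).

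Of the 2 ciliated cell markers outside the axoneme, Cdhr3 was lower without a call and Tppp3 was near 0. Among 30 other ciliated cell markers, described below, 21 were higher and 9 lower. Cdhr3, a cadherin-like receptor on ciliated cells, read 8.95, 8.88 and 8.98 on the arrays labelled Falcor-null, against 9.71, 9.19 and 9.17 on the wild-type arrays. The groups did not overlap, but the difference of -0.42 (95% interval -0.76 to -0.07) had an adjusted p of 0.274 and was -0.24 without wild type replicate 1. Tppp3, a tubulin-binding protein, had -0.00812 (-0.22 to 0.21). Of 8 remaining Cfap genes 5 were higher and 3 lower. Among them Cfap99 read 6.70, 6.49 and 6.58 on the arrays labelled Falcor-null and 6.21, 5.90 and 6.21 on the wild-type arrays, without overlap (difference 0.49, 95% interval 0.23 to 0.75, adjusted p 0.118). Cfap410 had -0.21 (adjusted p 0.518), and Cfap20dc, which is named for a domain it shares with Cfap20, had 0.12 (adjusted p 0.779).

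The cilium genes varied more among the wild-type arrays than between the groups, and within wild type most of them were highest on replicate 1. The sum of their linear signals ran from 10017 to 10280 on the arrays labelled Falcor-null, inside the span of 8899 to 11592 on the wild-type arrays. Relative to each gene's own mean over the 6 arrays, the median cilium gene stood at 0.07, 0.01 and 0.01 on the arrays labelled Falcor-null and at 0.16, -0.20 and -0.09 on wild type replicates 1, 2 and 3. Wild type replicates 1, 2 and 3 carried labels of 28, 29 and 30 days, so replicate and labelled day cannot be told apart here. The median over all genes lay between -0.0145 and 0.0126 on each array.

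Counts of single genes come from the same values. Wild type replicate 1 held the highest value of the 6 arrays for 38 of 67 cilium genes (56.7%), against 19.8% of all genes, and wild type replicate 2 the lowest for 34 (50.7%), against 16.9% of all genes. Both were true of 20 cilium genes (29.9%), among them Foxj1, Dnah5, Rsph4a, Cfap44, Cfap65 and Spag6l, and of 3.31% of all genes. Within the wild-type arrays, replicate 1 was the highest for 56 of 67. The 11 exceptions were Ccno, Rsph14, Rsph6a, Cfap73, Cfap126, Tekt5, Tppp3, Cfap20dc, Cfap410, Cfap97 and Cfap97d2.

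The spread within groups was uneven as well. The SD was larger among the wild-type arrays than among the arrays labelled Falcor-null for 50 of 67 cilium genes (74.6%), against 51.4% of all genes, with median SDs of 0.12 on the arrays labelled Falcor-null and 0.22 on the wild-type arrays. All 10 central pair genes and 9 of 10 genes of the nexin links, ruler and tethers had the larger SD in wild type, but only 2 of 4 regulators and 3 of 8 remaining Cfap genes did. These counts were not tested against each other.

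**Figure D3:**
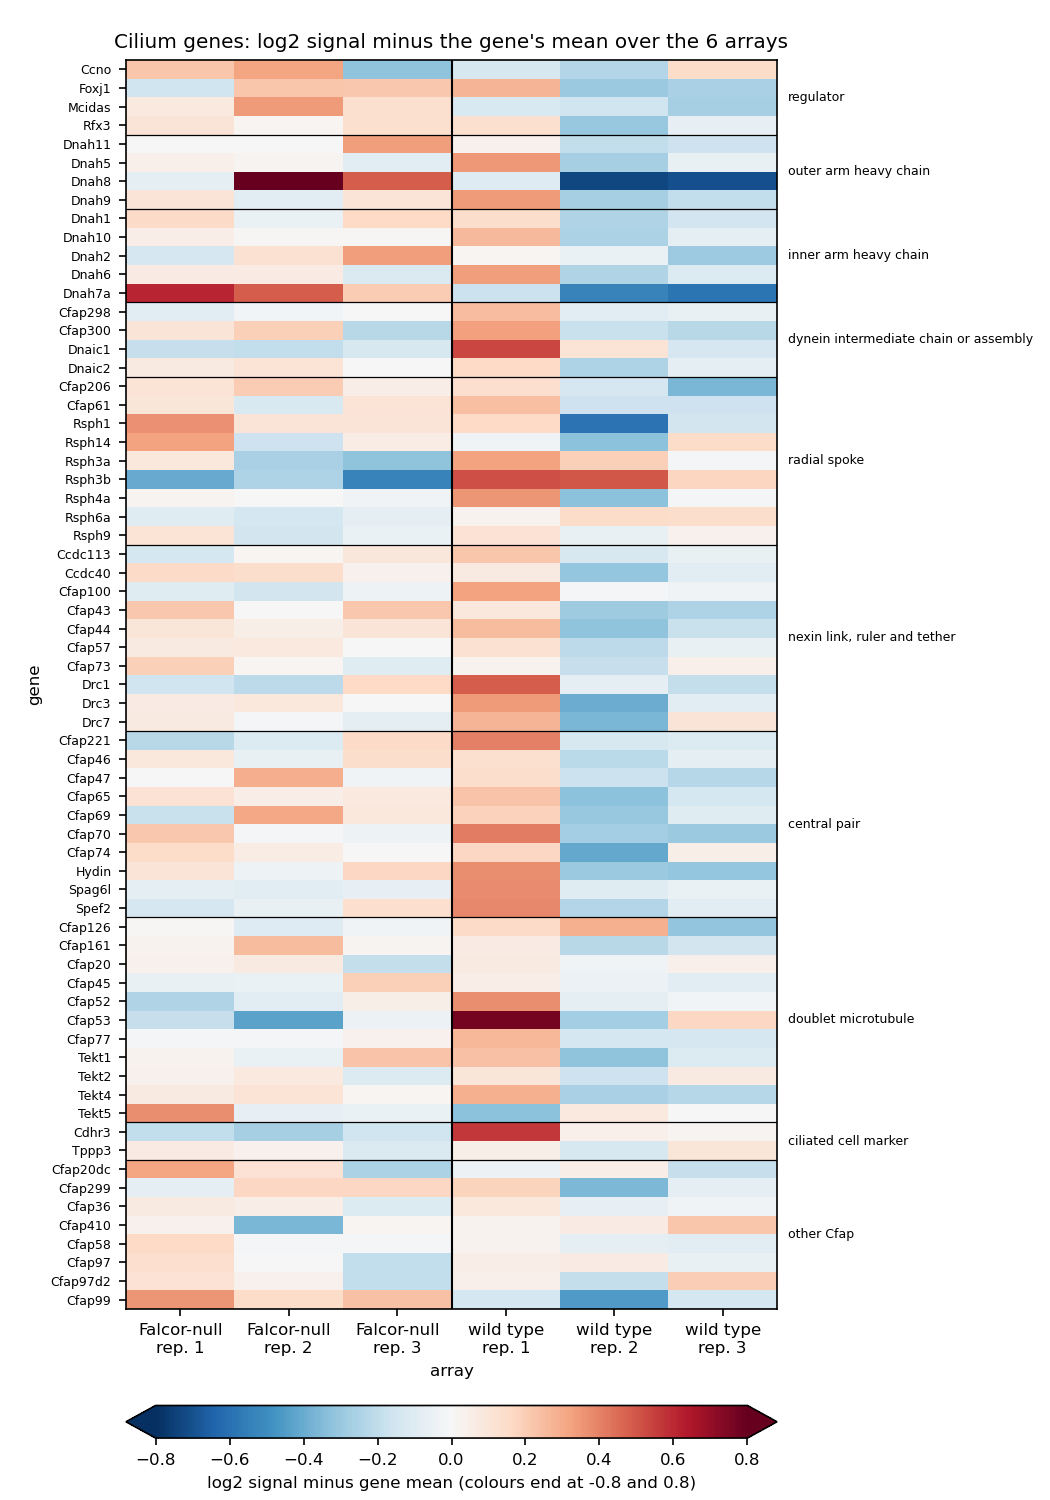
Log2 signal of each cilium gene minus its mean over the 6 arrays, with arrays across and genes grouped by role down the page, blue for lower and red for higher. Wild type replicate 1 is red for most genes (highest of the 6 arrays in 38 of 67) and wild type replicate 2 is blue for most (lowest in 34 of 67), while Dnah7a and Rsph3b divide the arrays by group.

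Other genes of the pathway, from 6 lists outside the 67 genes, gave no call among 137 genes measured, where 0.556% of all genes passed. Of the 137, 83 were higher (60.6%, against 50.8% of all genes). An unadjusted p under 0.05 was found for 6 of them (4.38%, against 13.8% of all genes). Of 14 further regulators 7 were higher and 7 lower (median 0.00705). Gmnc, which acts before Mcidas, read 6.15, 6.77 and 6.09 on the arrays labelled Falcor-null and 6.04, 6.25 and 5.33 on the wild-type arrays (difference 0.46, adjusted p 0.4996), Foxn4 had 0.27 (adjusted p 0.255) and E2f4 -0.18 (adjusted p 0.395). Of 21 genes of centriole amplification 10 were higher and 11 lower (median -0.04), with Deup1, which builds the centriole-forming deuterosome, at 0.25 (adjusted p 0.528), Cep89 at 0.26 (adjusted p 0.252) and Sass6 at -0.20 (adjusted p 0.480).

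Dynein assembly and docking genes gave 8 higher and 6 lower of 14 (median 0.05), with Dnaaf1 at 0.18 (adjusted p 0.427). Intraflagellar transport genes, which carry cargo along every cilium, gave 15 higher and 13 lower of 28 (median 0.00666), with Ift122 at -0.18 (adjusted p 0.369). Other axonemal components gave 22 higher and 8 lower of 30 (median 0.05), with Meig1 at 0.39 (adjusted p 0.363), and other ciliated cell markers 21 higher and 9 lower of 30 (median 0.04), with Aldh3b1 at -0.27 (adjusted p 0.199) and Fam183b at 0.38 (adjusted p 0.297).

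Wild type replicate 1 was also high in these lists, to differing degrees, but in further regulators Falcor-null replicate 2 was higher. Other ciliated cell markers had median deviations of 0.04, -0.04 and 0.05 on the arrays labelled Falcor-null and 0.24, -0.20 and -0.14 on wild type replicates 1 to 3, and replicate 1 was the highest array for 21 of 30. Other axonemal components had 0.05, -0.000631 and 0.03 on the arrays labelled Falcor-null and 0.20, -0.14 and -0.12 on the wild-type arrays. Dynein assembly and docking genes had 0.04, 0.05 and -0.06 on the arrays labelled Falcor-null and 0.17, -0.03 and -0.14 on the wild-type arrays, with replicate 1 the highest array for 8 of 14 (57.1%) and replicate 3, not 2, the lowest for 7. The remaining lists had smaller values: further regulators had 0.06, -0.0045 and -0.02 on the wild-type arrays, intraflagellar transport had 0.10, -0.03 and -0.08, and centriole amplification had 0.06, -0.00146 and -0.01. On Falcor-null replicate 2 these lists had 0.08, 0.06 and 0.03. For centriole amplification that array was the highest for 9 of 21 genes, against 5 for wild type replicate 1.

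Markers of other lung cells were read on the same arrays. Club cell markers stood at 0.22, 0.00415 and -0.03 on the 3 wild-type arrays, and goblet cell markers at 0.61, 0.54 and -0.18, so that replicate 1 was high for these too. Alveolar type 2 markers stood at -0.01, -0.04 and 0.11. The part of airway content in the spread of the cilium genes was not tested. Between the groups, club cell markers had 4 higher and 8 lower of 12 with Bpifa1 passing as lower (difference -1.51, adjusted p 0.0383), goblet cell markers 2 higher and 7 lower of 9 with Itln1 passing as lower (-1.31, adjusted p 0.0265), and basal cell markers 3 higher and 1 lower of 4 without a call. Neuroendocrine markers (2 of 5 higher), alveolar type 1 markers (6 of 6 higher), alveolar type 2 markers (3 of 8 higher) and the 2 measured male germ cell markers (neither higher) had no call. For Muc5b (-0.69) and Trp63 (0.19) adjusted p-values were 0.607 and 0.519.

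**Figure D4:**
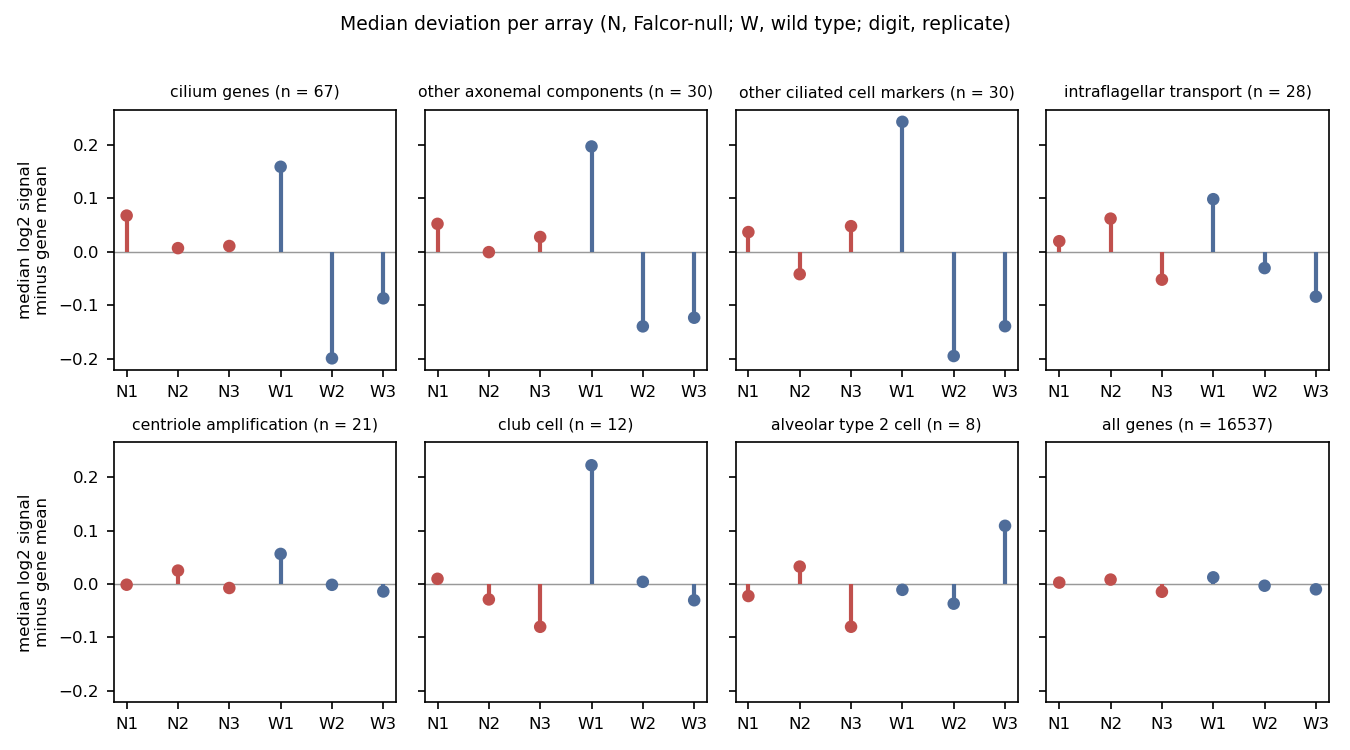
Median over the genes of a list of the log2 signal minus the gene's mean over the 6 arrays, for the cilium genes, 4 lists of related genes, 2 lists of other lung cells and all genes, with the arrays labelled Falcor-null (N1 to N3, red) left of the wild-type arrays (W1 to W3, blue). Cilium genes, other axonemal components and other ciliated cell markers are highest on W1 and low on W2 and W3, and all genes stay near 0.

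The balance of higher and lower cilium genes rested on which wild-type arrays were used. Without wild type replicate 1, 52 of 67 genes were higher and 15 lower, the median difference was 0.17, and 22 genes had an unadjusted p under 0.05 (32.8%, against 13.4% of all genes), 19 of them higher. Without wild type replicate 2, 33 were higher and 34 lower, with a median of -0.00512 and 7 at an unadjusted p under 0.05 (10.4%, against 10.8% of all genes). Over all 6 single-array omissions the median of the cilium genes ran from -0.00512 to 0.17, against -0.00469 to 0.01 for all genes. The shift of 0.08 compares 3 arrays with 3. The SD of the median deviation between single arrays, pooled over both groups, was 0.132, which is not the same measure. That median ran from 0.01 to 0.07 on the arrays labelled Falcor-null and from -0.20 to 0.16 on the wild-type arrays.

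**Figure D5:**
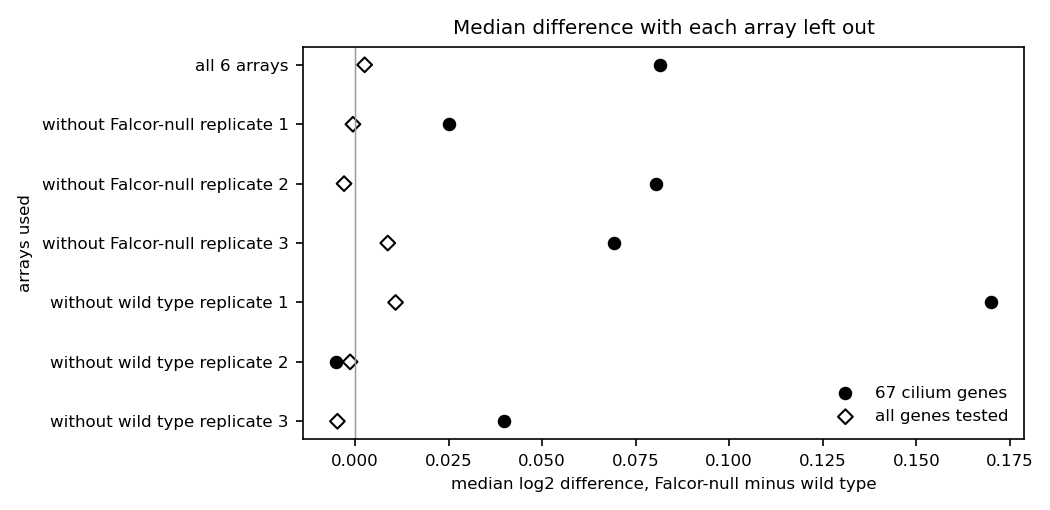
Median log2 difference, Falcor-null minus wild type, with all 6 arrays and with each array left out, for the 67 cilium genes (filled circles) and all genes tested (open diamonds). The cilium genes run from -0.00512 without wild type replicate 2 to 0.17 without wild type replicate 1, while all genes stay close to 0.

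Genes with and without the RFX half-site near their start had like differences between the groups, given as a description without a test. The 27 with it had a median of 0.09, with 17 higher, and the 31 without it had a median of 0.08, with 21 higher. Mcidas and Dnah7a, shown above with a half-site, lay at the high end, whereas Hydin (0.15), Cfap44 (0.16), Cfap298 (-0.07) and Cfap20dc (0.12), with the full repeat, lay between -0.07 and 0.16. Rsph3b, the gene that fell, had its half-site after the start.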

How the data were processed

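The deposited table holds log2 signals per probe set. Its making involved RMA in oligo, and limma, per the submitters' processing notes, which give no versions. RMA corrects background, equalises the arrays' distributions and summarises probes, so a shift of most genes would be removed. Genes were named through the platform annotation. Of 24173 probe sets, 17476 had 1 symbol and were used, 1308 with several and 5389 with none were left out, and the brightest set per gene left 16537 genes, of which the rule took 67.

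Groups and replicate numbers came from the sample titles. Falcor-null was compared with wild type in limma (version 3.58.1 under R 4.3.3) by lmFit followed by eBayes, a two-sided test without covariates and with Benjamini-Hochberg adjustment over all genes and a threshold of 0.05. An exact test of 3 arrays against 3 cannot go below 0.1. Intervals are 95% intervals from limma, lists were described by counts and medians, and the scripts were tested on simulated data. Figures used matplotlib 3.10.9 in Python 3.11.15.

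The cilium genes and lists were chosen with earlier results of these data known. Genes were named by rule: Falcor and Foxa2, the members given by symbol, genes that passed, the 8 largest rises and falls, the 8 smallest p-values, the 5 brightest, dimmest and most variable, near-identical copies, up to 3 genes of smallest p per pathway list, Scgb1a1, Trp63, Sftpc and Muc5b, and other markers that passed. Other members named complete their role groups and were chosen after their values were seen, as were the motifs and promoters. Levels of different probe sets are not comparable.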

Additional observations from a re-analysis of the deposited data

How the results depend on the processing

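Of 30 named cilium genes, 25 kept their direction in every alternative that gave them a value, of 18 run (dim filters drop some genes). Of 520 values under alternatives, 495 kept both direction and side of the threshold. Many of these could not turn direction, since the alternative left each gene's difference as it was. That held for a threshold of 0.1, updated gene symbols, an intensity trend and robust variance. It also held for the replicate block, the dim filters and every probe set tested. Where 1 cilium gene passed in the main comparison, 2 passed with array weights or at an adjusted p of 0.1, and 0 passed with a repeated quantile normalization, centring by array median, every probe set tested, probe sets dimmer than the median left out (Rsph3b among them) or the replicate number as a block. With single arrays left out, 0 to 1 passed. Over all genes, 92 passed in the main comparison, 32 with the replicate block, 280 at 0.1, and 18 to 89 with an array left out. Over all genes, deviations of same-numbered arrays from their group means had correlations of 0.0217, -0.00255 and -0.0814. No such correlation was computed for the cilium genes alone, so a batch shared by replicate number was not tested for them. The block changed no cilium call other than that of Rsph3b (limma adjusted p 0.0665). The median of the cilium genes ran from -0.00512 to 0.17 over the alternatives, against 0.08 in the main comparison, and was 0.01 with dim probe sets below the median left out. Signs turned in small differences: Tppp3 with array weights (0.0134), centring (0.0201) and a repeated quantile normalization (0.0277), and Ccdc113 with centring (0.00429). With single arrays left out, Tppp3 ran from -0.0742 to 0.0464, Ccdc113 from -0.0934 to 0.0816, Spef2 from -0.17 to 0.14, Cfap20 from -0.11 to 0.0237 and Cfap20dc from -0.00759 to 0.28. The cause was not tested. Dim probe sets have little signal over background, and detection calls were not used here.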
